A study of Mus musculus with 27 samples.

Results

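The genes described here are 10 rapidly induced transcription factor genes and related early response genes in tissues of *Mlx*KO mice: *Fos*, *Fosb*, *Jun*, *Junb*, *Atf3*, *Egr1*, *Ier2*, *Nr4a1*, *Nr4a2* and *Nr4a3*. They were taken by symbol from a list drawn up with earlier results of these data known, and all 10 were found among the 36333 genes measured. RNA-seq was performed on liver, omental adipose tissue and skeletal muscle of male mice aged 5 or 20 months, with 4 samples per tissue at the younger age and 5 at the older, 27 in all. Every mouse came from a cross of a *ROSA26*-CreERT2 line with *Mlx* Flox/Flox mice. Cre recombinase was expressed from the *ROSA26* locus and activated by tamoxifen, so the deletion was body-wide and not limited to a cell type, and every mouse had received 5 daily injections of tamoxifen at 75 mg/Kg from the time of weaning. The same 4 mice gave all 3 tissues at the younger age and are called A, B, C and D here, in ascending order of the numbers in their labels. The older samples carried different numbers in each tissue (56 to 60 in muscle, 36 to 40 in adipose tissue, and 16, 17, 18, 19 and 74 in liver). The labels do not state whether older samples of different tissues came from the same animals, and each is treated here as its own mouse. Their titles give an age of 20 months, which is used here, whereas their codes begin with X18. The paper lists the older mice of its qRT-PCR in these tissues as 18 months old. WT tissues were not analysed here, so each comparison is between ages or tissues of *Mlx*KO mice.

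Immediate early genes are transcribed within minutes of a stimulus without new protein synthesis, through factors already present in the cell such as Srf with the Elk proteins and Creb. Fos and Jun family proteins pair to form AP-1, which binds DNA and activates or represses later genes. Egr1 is a zinc finger factor, Atf3 is a stress-induced member of the ATF/CREB family, and Ier2 is a small nuclear protein. The 3 Nr4a genes encode orphan nuclear receptors, which respond strongly to cAMP in liver and adipose tissue and to contraction and adrenergic stimulation in muscle. Because the mRNAs are short-lived, their levels follow the state of a tissue shortly before its RNA was preserved.

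The genes lie on 8 chromosomes (GRCm38.p6). *Fos* (ID 14281) is on chromosome 12 from 85473890 to 85477274, *Fosb* (ID 14282) on chromosome 7 from 19302696 to 19310118, and *Jun* (ID 16476) on chromosome 4 from 95049036 to 95052222. *Junb* (ID 16477) is on chromosome 8 from 84976909 to 84978748, and *Ier2* (ID 15936) is on the same chromosome from 84661331 to 84662852. *Atf3* (ID 11910) is on chromosome 1 from 191170296 to 191183333, and *Egr1* (ID 13653) is on chromosome 18 from 34861207 to 34864956. *Nr4a1* (ID 15370) is on chromosome 15 from 101253902 to 101274795, *Nr4a2* (ID 18227) on chromosome 2 from 57106830 to 57124003, and *Nr4a3* (ID 18124) on chromosome 4 from 48045078 to 48086447. In GENCODE M21, the exons of *Junb* share 173 bases with those of *Prdx2* on the opposite strand, and those of *Jun* share 232 bases with the antisense transcript *Junos*. The strand setting used to count reads was not given in the sources used here, so reads from these shared bases cannot be assigned with certainty. No other member shared exonic bases with another gene.

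Samples held 14384695 to 25673919 reads on genes. The deposited values are reads per gene scaled to the depth of each sample and then to a factor of its own, and are called values below. *Mlx*, the targeted gene, was still counted at values of 7.04 to 32.4, from 101 to 522 reads. The count of a gene does not separate the deleted exons 3 to 6 from the others, so these values do not measure how complete the deletion was. By qRT-PCR relative to WT, the paper reports more remaining *Mlx* transcript in muscle than in liver or adipose tissue of mice A to D. It reports the same order for older mice. The tissues matched their labels. The summed value of 5 hepatocyte markers was 45920 to 148818 in liver, against at most 226 in adipose tissue and 319 in muscle, and that of 5 myofibre markers was 120264 to 155271 in muscle, 98.9 to 828.7 in adipose tissue and at most 1.21 in liver. The 5 adipocyte markers summed to 3203 to 5838 in adipose tissue, against at most 219 in liver and 76.5 in muscle.

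The promoters of the genes that fell together in muscle (*Fos*, *Junb* and *Atf3*) and in adipose tissue (*Nr4a1* and *Nr4a3*), described below, are shown as the 250 bases before the RefSeq start site, 5′ to 3′ on the strand of the gene. The start sites used for *Nr4a1* and *Nr4a3* lie 12944 and 227 bases inside the loci given above, which begin at an earlier start. Capitals mark TGACG on either strand, which forms part of the cAMP response element TGACGTCA.
Fos, chr12:85473640-85473889, plus strand: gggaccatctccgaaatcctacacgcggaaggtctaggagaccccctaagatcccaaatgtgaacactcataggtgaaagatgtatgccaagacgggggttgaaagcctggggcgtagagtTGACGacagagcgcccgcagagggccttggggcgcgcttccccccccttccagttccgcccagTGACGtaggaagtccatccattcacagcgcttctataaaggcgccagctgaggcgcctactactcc
Junb, chr8:84978749-84978998, minus strand: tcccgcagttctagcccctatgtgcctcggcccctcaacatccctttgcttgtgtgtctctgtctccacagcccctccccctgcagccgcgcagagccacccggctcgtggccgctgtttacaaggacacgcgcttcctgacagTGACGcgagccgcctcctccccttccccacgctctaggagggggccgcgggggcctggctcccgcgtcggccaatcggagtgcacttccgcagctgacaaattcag
Atf3, chr1:191183334-191183583, minus strand: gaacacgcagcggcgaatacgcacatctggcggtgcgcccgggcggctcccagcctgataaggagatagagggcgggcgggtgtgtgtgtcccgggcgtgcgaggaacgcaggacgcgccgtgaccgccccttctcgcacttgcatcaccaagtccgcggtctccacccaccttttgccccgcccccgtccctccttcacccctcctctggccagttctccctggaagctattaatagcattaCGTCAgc
Nr4a1, chr15:101266596-101266845, plus strand: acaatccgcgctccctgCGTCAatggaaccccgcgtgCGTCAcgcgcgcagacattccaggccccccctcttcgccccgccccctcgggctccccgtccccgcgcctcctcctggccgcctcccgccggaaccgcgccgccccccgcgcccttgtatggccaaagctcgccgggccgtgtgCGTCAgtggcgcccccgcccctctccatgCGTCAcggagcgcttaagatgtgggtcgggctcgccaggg
Nr4a3, chr4:48045055-48045304, plus strand: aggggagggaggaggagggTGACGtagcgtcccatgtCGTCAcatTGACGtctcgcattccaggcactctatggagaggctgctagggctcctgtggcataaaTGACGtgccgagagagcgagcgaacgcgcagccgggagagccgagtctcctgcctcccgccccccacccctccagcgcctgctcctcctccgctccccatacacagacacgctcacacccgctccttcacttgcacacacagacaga
Of the 10 genes, 8 had a promoter in the RefSeq table and 7 of these held TGACG on either strand, all but *Jun*, whereas 17.8% of 32851 promoters of the same length held it. *Nr4a1*, *Nr4a2* and *Nr4a3* held 4 copies each, *Fos* 2, and *Fosb*, *Junb* and *Atf3* 1. The whole element TGACGTCA was in 0 of the 8 windows and in 1.55% of all promoters, the AP-1 site TGANTCA in 0 of 8 and 6.75%, the CArG box bound by Srf in 0 of 8 and 1.47%, the E-box CACGTG in 0 of 8 and 6.02%, and the Nr4a site AAAGGTCA in 0 of 8 and 1.34%. TATAAA was in the windows of *Fos* and *Nr4a2* and in 12.4% of all promoters. All motifs were searched on both strands, and a match to these letters is not evidence of binding. Sites outside the 250 bases, or in the promoters of *Egr1* and *Ier2*, were not searched, so 0 matches does not mean that a gene lacks a site.

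Between 4 and 9 of the 10 genes differed in level in each comparison of 2 tissues, a share below that over all genes except between liver and muscle. At 5 months, 9 of the 10 genes differed between liver and muscle, where 72.9% of all genes tested did, 6 differed between liver and adipose tissue, where 76.4% did, and 4 differed between adipose tissue and muscle, where 72.8% did. At 20 months the same comparisons gave 9 genes (77.2% of all genes), 7 (74.5%) and 5 (76.0%). These tests were made by limma on log2(value + 1) over all 27 samples, with an adjusted p under 0.05. *Fosb*, *Nr4a2* and *Nr4a3* were too low to be tested within liver and entered this fit through the other tissues. Their differences from liver therefore follow in part from the filter. Of the 7 genes tested within liver, 6 differed from muscle at 5 months, beside 8260 of 11105 genes tested in both tissues. From adipose tissue 3 differed, beside 8882 of 11819 such genes. At 20 months 7 and 5 differed, beside 8697 and 8790 of the same genes. In bulk tissue, fewer cells that make a transcript and less transcript per cell cannot be told apart.

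**Figure D1:**
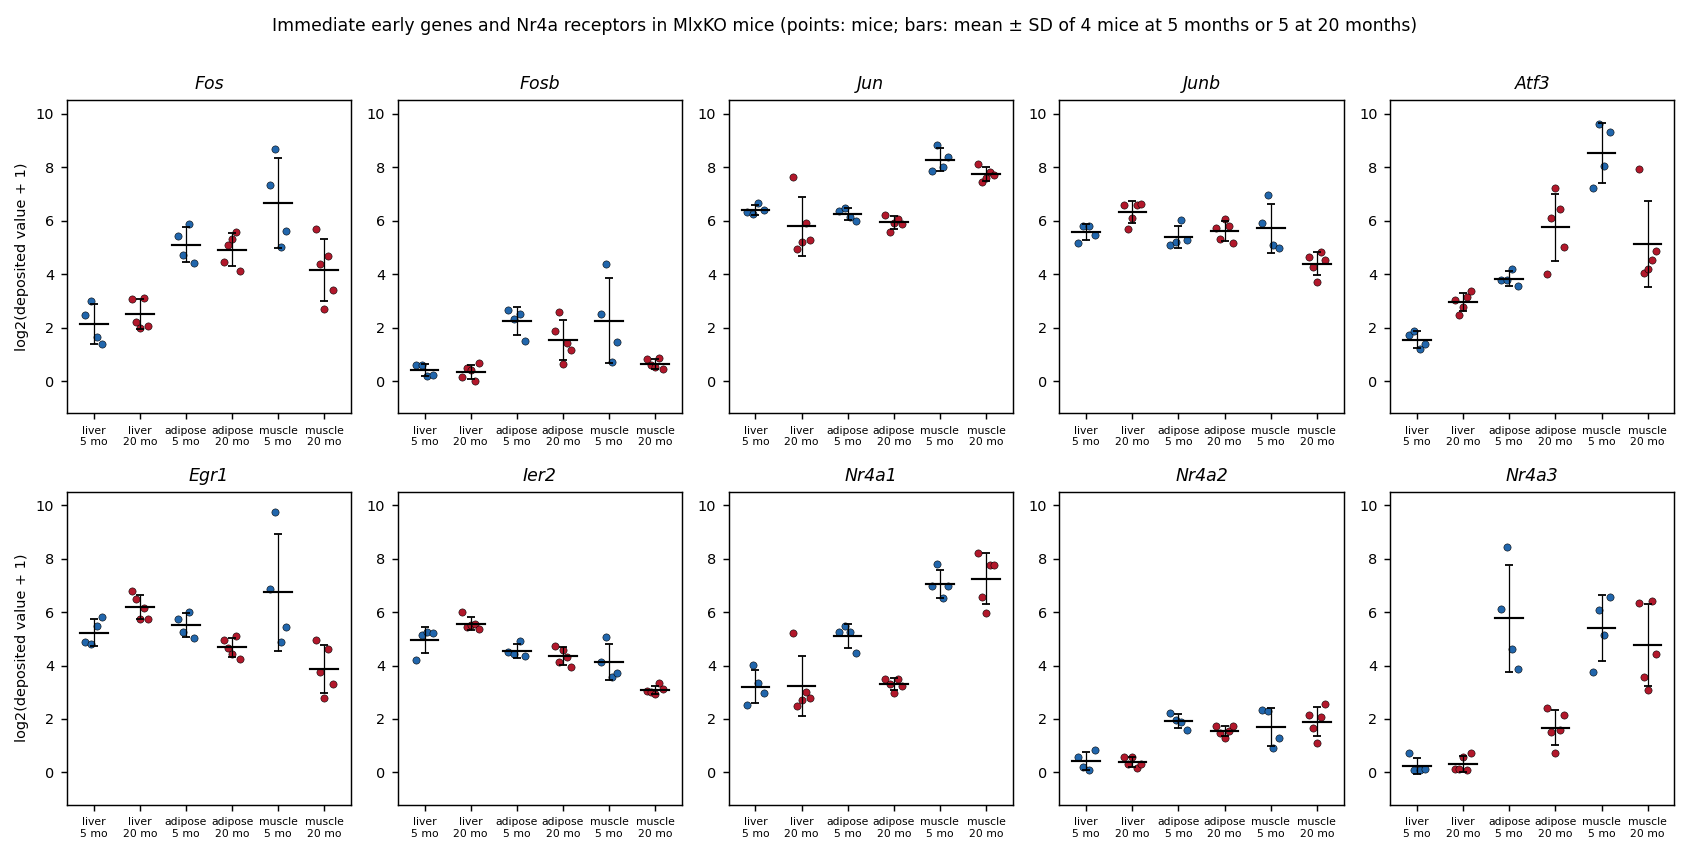
Deposited values of the 10 genes as log2(value + 1) on the y axis, by tissue and age on the x axis. Each point is a sample (blue, 5 months, n = 4; red, 20 months, n = 5) and bars give the mean ± SD. *Nr4a1* and *Nr4a3* in adipose tissue and *Junb* and *Ier2* in muscle are lower in all 5 samples at 20 months than in all 4 at 5 months, whereas *Atf3* and *Ier2* in liver are higher.

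Among the AP-1 genes, *Fos* at 5 months was highest in muscle at 163 ± 176 (SD, n = 4), intermediate in adipose tissue at 36.2 ± 16.8 (SD, n = 4) and lowest in liver at 3.81 ± 2.44 (SD, n = 4). Each step in this order passed the test, that between muscle and adipose tissue by the least (adipose tissue minus muscle, log2 difference -1.55, standard error 0.63, limma adjusted p = 0.0290). At 20 months, *Fos* in adipose tissue (31.3 ± 12.6, SD, n = 5) and in muscle (21.9 ± 17.6, SD, n = 5) was not distinguished (log2 difference 0.75, limma adjusted p = 0.225). *Jun*, the main partner of Fos, was highest in muscle at both ages, with means of 321 and 215 at 5 and 20 months, and liver (84.3 and 72.0) and adipose tissue (75.6 and 60.7) were not distinguished at either age. *Junb*, which can oppose Jun at some promoters, showed no difference between tissues that passed the test at 5 months, when its means were 46.8 in liver, 42.5 in adipose tissue and 60.9 in muscle. At 20 months the order was liver (81.0 ± 20.7, SD, n = 5), adipose tissue (49.0 ± 12.5) and muscle (20.7 ± 5.82), and every step passed the test. *Fosb*, another partner of Jun, was at 3 reads or fewer in 4 of the 9 livers.

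*Atf3* at 5 months was highest in muscle and lowest in liver. Its mean was 454 ± 299 (SD, n = 4) in muscle, 13.4 ± 2.81 in adipose tissue and 1.97 ± 0.641 in liver, and each step passed the test. At 20 months, adipose tissue (69.2 ± 51.4, SD, n = 5) and muscle (65.1 ± 99.3) were not distinguished for *Atf3* (log2 difference 0.64, limma adjusted p = 0.326), and both exceeded liver (6.91 ± 1.81). *Egr1* means at 5 months were 262 ± 401 in muscle, 46.1 ± 14.5 in adipose tissue and 38.3 ± 13.4 in liver, and the step from liver to muscle alone passed the test (log2 difference -1.50, limma adjusted p = 0.0368). At 20 months the order was turned, with *Egr1* at 74.3 ± 24.1 in liver, 25.2 ± 6.37 in adipose tissue and 16.2 ± 10.2 in muscle (SD, n = 5), and the latter pair was not distinguished (limma adjusted p = 0.208). *Ier2* at 20 months followed the order of *Junb*, at 47.1 ± 9.04, 19.8 ± 4.69 and 7.58 ± 0.963, with every step past the threshold.

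Of the 3 receptors, *Nr4a2* and *Nr4a3* were low in liver, whereas *Nr4a1* rested on 74 to 711 reads there. *Nr4a3* rested on 1 to 13 reads in each liver and *Nr4a2* on 1 to 10. *Nr4a1* was highest in muscle at both ages (139 ± 55.0 at 5 months and 176 ± 97.7 at 20 months). In adipose tissue *Nr4a1* exceeded liver at 5 months (34.5 ± 9.37 against 8.98 ± 4.49), whereas at 20 months the means were 8.97 ± 1.45 and 11.9 ± 13.6 and were not distinguished (liver minus adipose tissue, log2 difference -0.06, standard error 0.43, limma adjusted p = 0.910). *Nr4a3* was not distinguished between adipose tissue and muscle at 5 months (112 ± 155 and 51.9 ± 35.6, log2 difference 0.37, standard error 0.76, limma adjusted p = 0.676). At 20 months the mean of *Nr4a3* was 2.45 ± 1.42 in adipose tissue and 40.5 ± 37.97 in muscle, a log2 difference of -3.09 (limma adjusted p = 2.0e-04). *Nr4a2* was not distinguished between adipose tissue and muscle at either age, with means of 1.95 to 2.94.

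Levels of different genes can be compared only per length of transcript. Per kilobase of merged exons, *Jun* was the most abundant of the 10 genes in liver and adipose tissue at 5 months (means of 26.4 and 23.7 per kilobase), and *Atf3* was the most abundant in muscle at that age (211 per kilobase, with *Jun* next at 101). At 20 months the leading gene was *Junb* in liver (35.2 per kilobase), *Atf3* in adipose tissue (32.1) and *Jun* in muscle (67.5).

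The comparison of 20 with 5 months asked how the genes changed with age in each *Mlx*KO tissue. The ages are separate sets of mice, so age cannot be told apart from other differences between the sets, such as the state of a tissue shortly before preservation. In muscle, 5 of the 9 genes tested were lower at 20 months (*Fos*, *Junb*, *Atf3*, *Egr1* and *Ier2*) and 0 were higher (limma, adjusted p under 0.05), against 10.1% of all 12720 genes tested that were lower and 19.3% that differed in either direction. The median log2 change of the 9 was -1.03, beside 0.02 over all genes tested. *Fosb* was not tested there, because its value reached 1 in too few samples.

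**Figure D2:**
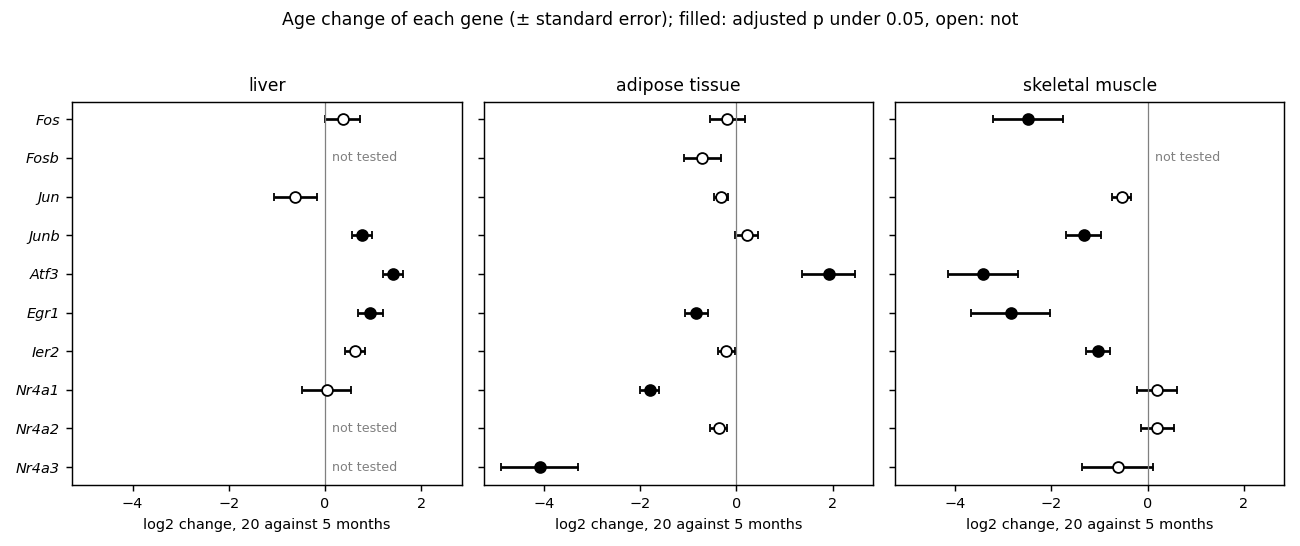
Log2 change from 5 to 20 months (x axis, with its standard error) of each gene in liver, adipose tissue and muscle, on the log2(value + 1) scale. Filled points passed an adjusted p of 0.05: 3 genes rose in liver, 1 rose and 3 fell in adipose tissue, and 5 fell in muscle.

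Muscle *Atf3* was 147, 780, 261 and 627 in mice A, B, C and D at 5 months, and 242, 15.4, 17.4, 22.3 and 28.2 in mice 56 to 60 at 20 months. The older mice lay below every younger one except mouse 56, which lay within the younger range, and the log2 change was -3.42 (standard error 0.73, limma adjusted p = 0.0114). Muscle *Ier2* was 16.5, 32.9, 10.9 and 12.1 at 5 months and 7.37, 7.05, 6.58, 9.11 and 7.77 at 20 months. The ages did not overlap, and *Ier2* fell by 1.03 on the log2 scale (standard error 0.26, limma adjusted p = 0.0194). These were the calls in muscle that held whichever single mouse was left out, and the log2 change of *Atf3* was -4.13 without mouse 56 (limma adjusted p = 0.00101).

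Muscle *Junb* was 58.5, 122, 32.7 and 30.2 at 5 months and 23.99, 18.3, 12.1, 27.3 and 21.8 at 20 months. The ages again did not overlap, as for 8.64% of all genes with the older mice lower, and *Junb* fell by 1.33 on the log2 scale (standard error 0.36, limma adjusted p = 0.0271). Muscle *Fos* was 159, 412, 31.4 and 47.2 at 5 months and 50.3, 19.5, 5.50, 24.6 and 9.48 at 20 months, and fell by 2.49 on the log2 scale (standard error 0.73, limma adjusted p = 0.0348). Muscle *Egr1* was 115, 860, 28.3 and 42.6 at 5 months and 29.9, 12.6, 5.86, 23.6 and 8.91 at 20 months, and fell by 2.85 (standard error 0.82, limma adjusted p = 0.0333). The younger mean of *Egr1* rested on mouse B, and the log2 change was -1.84 without it (limma adjusted p = 0.0323) and -3.47 without mouse C (limma adjusted p = 0.0108). Mouse 56 at 20 months lay above the younger mice C and D for *Fos* and above mouse C for *Egr1*, and the younger mice spanned 13.1-fold for *Fos* and 30.3-fold for *Egr1*. Without any 1 of mice 57, 58, 60 or A the calls on *Junb* and *Egr1* were lost, with limma adjusted p of 0.0566 to 0.0643 for *Junb* and 0.0646 to 0.0778 for *Egr1*, with log2 changes of -1.36 to -1.16 and -2.82 to -2.57 in these fits. That on *Fos* was lost without any 1 of these 4 or without mouse B (log2 change -2.54 to -1.82, limma adjusted p = 0.0617 to 0.0823).

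The other AP-1 genes and the receptors in muscle did not pass the test. *Jun* was 232 to 458 at 5 months and 171 to 276 at 20 months, with 4 of the 5 older mice below every younger one (log2 change -0.54, limma adjusted p = 0.0658). It passed the threshold when any 1 of mice 56, A or C was left out (log2 change -0.68 to -0.63, limma adjusted p = 0.0385 to 0.0487). *Fosb* was 4.61, 19.6, 0.626 and 1.74 at 5 months and 0.356 to 0.808 at 20 months, from 5 to 243 reads. *Nr4a1* was 91.5 to 219 and 60.7 to 298 (log2 change 0.19, standard error 0.42, limma adjusted p = 0.771), *Nr4a2* 0.861 to 3.996 and 1.16 to 4.85, and *Nr4a3* 12.6 to 93.6 and 7.45 to 84.2 (log2 change -0.62, standard error 0.74). The ages overlapped for all 3 receptors in this tissue.

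In adipose tissue, 4 of the 10 genes differed between the ages, 3 lower and 1 higher at 20 months, where 9.35% of all 14005 genes tested were lower, 9.75% higher and 19.1% either. The median log2 change of the 10 was -0.34, beside 0.01 over all genes. *Nr4a1* was 37.3, 43.0, 36.7 and 21.2 in mice A, B, C and D at 5 months and 10.3, 8.84, 6.87, 10.4 and 8.48 in mice 36 to 40. All older mice lay below all younger ones, the means differed 3.85-fold, and the log2 change was -1.80 (standard error 0.20, limma adjusted p = 0.00417). This call held without any single mouse. *Nr4a3* was 68.3, 341, 23.9 and 13.7 at 5 months and 4.30, 1.87, 0.654, 2.02 and 3.41 at 20 months. The ages did not overlap for this gene either, although mouse B stood far above the other younger mice, and the medians were 46.1 and 2.02 (log2 change -4.09, standard error 0.80, limma adjusted p = 0.0160). Of all genes, 9.10% were lower at 20 months with no overlap of the ages in this tissue. The call on *Nr4a3* was lost without mouse A (log2 change -3.97, limma adjusted p = 0.0526), and the log2 change was -3.20 without mouse B (limma adjusted p = 0.0238) and -4.71 without mouse D (limma adjusted p = 0.00953). *Nr4a2* was 2.01 to 3.70 and 1.46 to 2.33 (log2 change -0.37, limma adjusted p = 0.132).

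Adipose *Atf3* moved the other way. It was 12.6, 12.9, 17.4 and 10.8 at 5 months and 15.0, 68.0, 146, 85.3 and 31.3 at 20 months, and rose by 1.92 on the log2 scale (standard error 0.55, limma adjusted p = 0.0406). Mouse 36 lay within the younger range, and the other 4 older mice lay above it. *Egr1* was 52.4, 36.8, 63.4 and 31.8 at 5 months and 30.1, 24.2, 20.4, 33.1 and 18.04 at 20 months, and fell by 0.83 on the log2 scale (standard error 0.24, limma adjusted p = 0.0398), with mouse 39 alone above the lowest younger mouse. Both calls were close to the threshold. Without any 1 of mice 37, 38, 39, 40, A or B both were lost, as was that on *Egr1* without mouse C and that on *Atf3* without mouse D (limma adjusted p = 0.0570 to 0.107 for *Egr1*, with log2 changes of -0.93 to -0.66, and 0.0560 to 0.0984 for *Atf3*, with 1.56 to 2.11). *Fos* was 20.3 to 57.3 at 5 months and 16.5 to 47.0 at 20 months (log2 change -0.19, standard error 0.36). *Jun* (62.9 to 88.2 and 46.8 to 73.3), *Junb* (32.8 to 63.7 and 34.8 to 65.5), *Ier2* (19.3 to 29.4 and 14.2 to 25.9) and *Fosb* (1.83 to 5.26 and 0.565 to 4.98) overlapped between the ages and did not pass the test.

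In liver, 7 of the 10 genes were tested, *Fosb*, *Nr4a2* and *Nr4a3* being too low, and 3 of the 7 were higher at 20 months and 0 lower, against 10% of all 12654 genes higher and 19.8% in either direction. The median log2 change of the 7 was 0.62, beside 0.00 over all genes tested. *Atf3* was 2.29, 2.69, 1.28 and 1.60 in mice A, B, C and D at 5 months and 7.23, 4.56, 5.78, 7.72 and 9.27 in mice 16, 17, 18, 19 and 74, from 18 to 185 reads. All 5 older livers lay above all younger ones, and *Atf3* rose by 1.41 on the log2 scale (standard error 0.21, limma adjusted p = 0.00626), a call that held without any single mouse. *Junb* was 35.0, 54.6, 54.3 and 43.3 at 5 months and 95.1, 50.7, 68.3, 93.9 and 97.1 at 20 months, with mouse 17 alone within the younger range (log2 change 0.76, standard error 0.21, limma adjusted p = 0.0301). *Egr1* was 28.1, 26.8, 43.2 and 55.0 at 5 months and 108, 88.6, 52.4, 69.7 and 52.7 at 20 months (log2 change 0.94, standard error 0.26, limma adjusted p = 0.0308). For *Egr1* mice 18 and 74 lay below the highest younger mouse. The call on *Junb* was lost without any 1 of mice 18, 19, A, B or D (log2 change 0.63 to 0.84, limma adjusted p = 0.0511 to 0.0803) and that on *Egr1* without any 1 of mice 17, 19, A or B (log2 change 0.80 to 0.95, limma adjusted p = 0.0573 to 0.0904).

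Liver *Ier2* was 17.5, 33.9, 37.1 and 36.2 at 5 months and 62.8, 42.3, 44.6, 45.8 and 40.05 at 20 months. All older livers lay above all younger ones, as for 8.46% of all genes, but the log2 change of 0.62 did not pass the test (standard error 0.21, limma adjusted p = 0.0628). *Jun* was 79.2, 75.1, 100 and 82.8 at 5 months and 199, 29.7, 35.4, 58.8 and 37.5 at 20 months. Mouse 16 lay above every younger liver and the other 4 older livers below every younger one, so the log2 change was -0.62 with all mice (limma adjusted p = 0.339) and -1.08 without mouse 16 (limma adjusted p = 0.00328). The same mouse was highest for *Nr4a1* at 36.2, where the other older livers were 4.66 to 7.10 and the younger ones 4.71 to 15.1. The log2 change of *Nr4a1* was 0.03 with all mice and -0.46 without mouse 16, and neither passed the test (limma adjusted p = 0.972 and 0.234). *Fos* was 1.60 to 6.91 at 5 months and 2.97 to 7.67 at 20 months (log2 change 0.37, limma adjusted p = 0.482).

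Whether the age changes differed between tissues was tested directly, in a fit over all 27 samples. The age change of 5 genes was higher in liver than in muscle, where 17.5% of all genes differed in either direction. The largest such difference was of *Atf3*, with a difference of log2 changes of 4.83 (standard error 0.88, limma adjusted p = 7.46e-04), followed by *Egr1* with 3.79 (standard error 0.85, limma adjusted p = 0.00397). It was 2.86 for *Fos* (standard error 0.84, limma adjusted p = 0.0201), 2.09 for *Junb* (limma adjusted p = 0.00255) and 1.65 for *Ier2* (limma adjusted p = 0.00230). Adipose tissue and muscle differed in the age change of 4 genes, where 14.7% of all genes did. *Atf3* (5.35, limma adjusted p = 4.24e-04) and *Junb* (1.54, limma adjusted p = 0.0207) had the higher change in adipose tissue. *Nr4a3* (-3.46, limma adjusted p = 0.0235) and *Nr4a1* (-1.99, limma adjusted p = 0.0388) had the lower change there. Between liver and adipose tissue 15.6% of all genes differed, and 0 of the 7 members tested in both tissues did by limma, with 3 at p under 0.05 before adjustment, 1 by edgeR and 1 by DESeq2. *Nr4a3* was at 3 reads or fewer in 6 of 9 livers and is not among these 7, although the fit of 27 samples called it. *Nr4a1* missed the threshold in that comparison (1.83, standard error 0.64, limma adjusted p = 0.0535) and passed it with the mouse as a block (limma adjusted p = 0.0425). In all, 7 of the 9 members that were tested in both tissues of a pair differed in at least 1 pair, against 31.2% of 12916 such genes.

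The 4 younger mice could be followed through all 3 tissues. In muscle, mouse B was the highest of the 4 for 8 of the 10 genes, all but *Nr4a2* and *Nr4a3*, and mouse C was the lowest for 6. In adipose tissue the order was different. Mouse D was lowest for 9 genes, all but *Junb*, and the highest values were split between mouse C, which led for *Fos*, *Junb*, *Egr1*, *Atf3* and *Ier2*, and mouse B, which led for *Jun*, *Nr4a1* and *Nr4a3*. In liver, mouse B led for 4 of the 7 genes with more than 3 reads in every sample (*Fos*, *Junb*, *Atf3* and *Nr4a1*) and was lowest for *Jun* and *Egr1*. Among the older mice, muscle of mouse 56 was the highest for 5 genes and that of mouse 58 the lowest for 7, and liver of mouse 16 was the highest for 4 of 7.

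**Figure D3:**
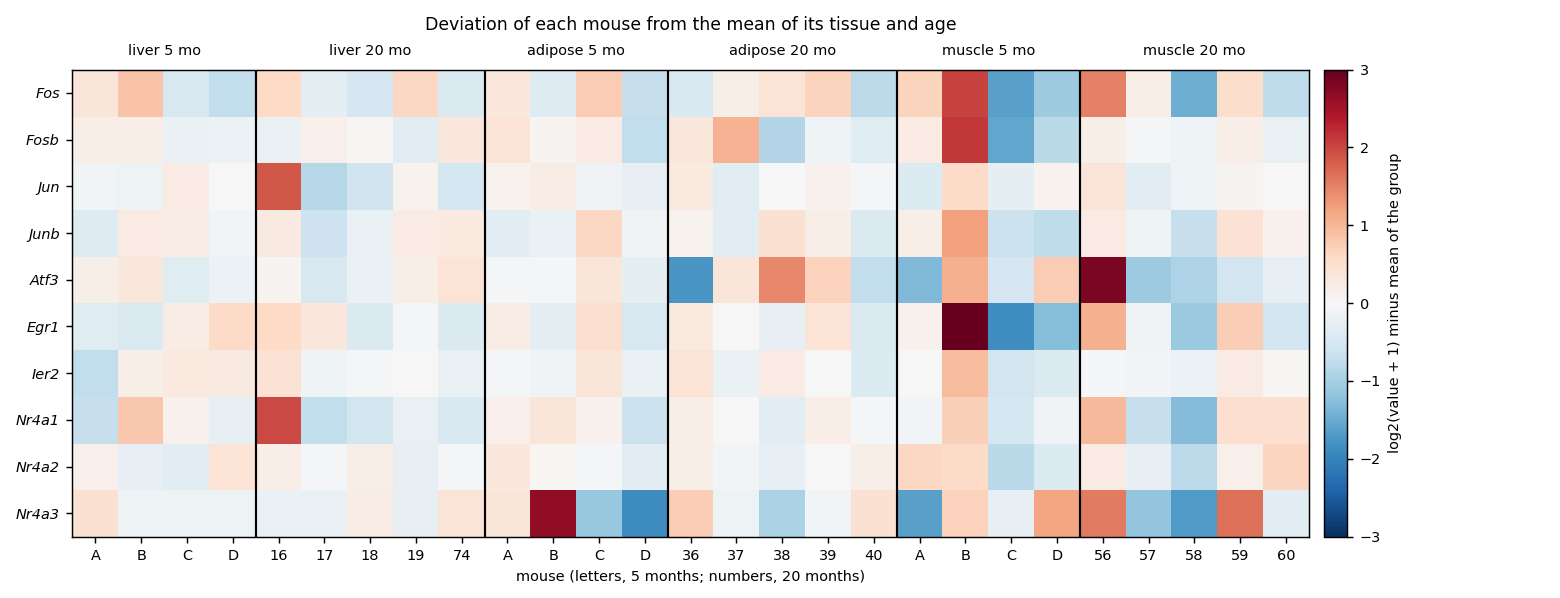
Deviation of each sample from the mean of its tissue and age (colour, difference of log2(value + 1)), with genes in rows and mice in columns (letters at 5 months, numbers at 20 months). Mouse B stands above its group for most genes in 5-month muscle and for *Nr4a3* in adipose tissue, mouse 56 stands above for *Atf3* in 20-month muscle, and mouse 16 for *Jun* and *Nr4a1* in 20-month liver.

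Heat shock chaperone genes, which are also induced within minutes but through Hsf1, were examined beside these mice. Their summed value over 10 genes was highest in mouse B among the younger mice in every tissue, at 5745 in liver against 2912 to 3673 in the other 3, 1855 in adipose tissue against 1481 to 1657, and 20280 in muscle against 3459 to 8944. In muscle the sum was 1866 to 2031 in 4 of the older mice and 3461 in mouse 56, the mouse that was also highest for *Atf3* and *Fos* at that age. Of the 10 chaperone genes, 7 fell in muscle (median log2 change of the 10, -1.67), including *Hspa1a* (1387 ± 1911 to 28.7 ± 16.7, SD, n = 4 and 5, log2 change -4.36, limma adjusted p = 0.00766) and *Hspa1b* (log2 change -4.82, limma adjusted p = 0.00624), which encode the inducible Hsp70 proteins and share most of their sequence. In adipose tissue 1 fell (*Bag3*, a co-chaperone, log2 change -0.79, median of the 10 -0.16) and in liver 0 did (median -0.56). Over all genes tested, 10.1% were lower in muscle, 9.35% in adipose tissue and 9.79% in liver. Without mouse B, 4 members were called in muscle in place of 5.

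Markers of other cells also moved with age. Their counts stand beside 10.1% of all genes tested lower in muscle, 9.35% lower and 9.75% higher in adipose tissue, and 9.79% lower and 10% higher in liver. In muscle the summed value of 5 macrophage markers was 110 to 182 at 5 months and 63.4 to 124 at 20 months, with 3 of 5 lower, that of 5 fibroblast markers was 315 to 533 and 174 to 261, with 4 of 5 lower, and that of 5 red cell markers was 420 to 700 and 291 to 587, with 3 of 5 lower. In adipose tissue macrophage markers summed to 614 to 1413 and 861 to 4852 (1 of 5 higher), B cell markers to 3.10 to 17.3 and 12.3 to 167 (5 of 5 higher), endothelial markers to 568 to 1275 and 351 to 672 (3 of 5 lower), mesothelial markers to 62.5 to 129 and 32.0 to 70.9 (3 of 5 lower), red cell markers to 724 to 1733 and 311 to 794 (2 of 5 lower), and myofibre markers to 327 to 828.7 and 98.9 to 559 (0 of 5 called). In liver the 5 hepatocyte markers summed to 97771 to 148818 and 45920 to 98680 (0 of 5 called), and B cell (4 of 5), red cell (4 of 5) and fibroblast markers (2 of 4 tested) were higher. Macrophage markers there summed to 144 to 249 and 166 to 594 (1 of 5 higher, *Lyz2*). Mesothelial markers in liver summed to 5.04 to 10.1 and 9.02 to 23.8 (1 of 5 higher), and endothelial markers to 110 to 176 and 94.2 to 123 (1 of 5 lower). T cell markers summed to 4.10 to 8.97 and 5.02 to 44.9 in adipose tissue and 0.955 to 2.88 and 2.50 to 11.4 in liver. *Cd8a* was higher in both (1 of 4 tested and 1 of 1), whereas *Trac* was listed at 0 in every sample. Pancreas markers summed to 3.21 to 12.3 and 16.1 to 29.7 in adipose tissue. *Cela1*, the only 1 of them tested, was higher there and in liver. *Prss2* and *Pnlip*, pancreatic enzymes, were at 3 reads or fewer in every adipose sample. The part of these cells in the changes of the 10 genes was not tested.

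**Figure D4:**
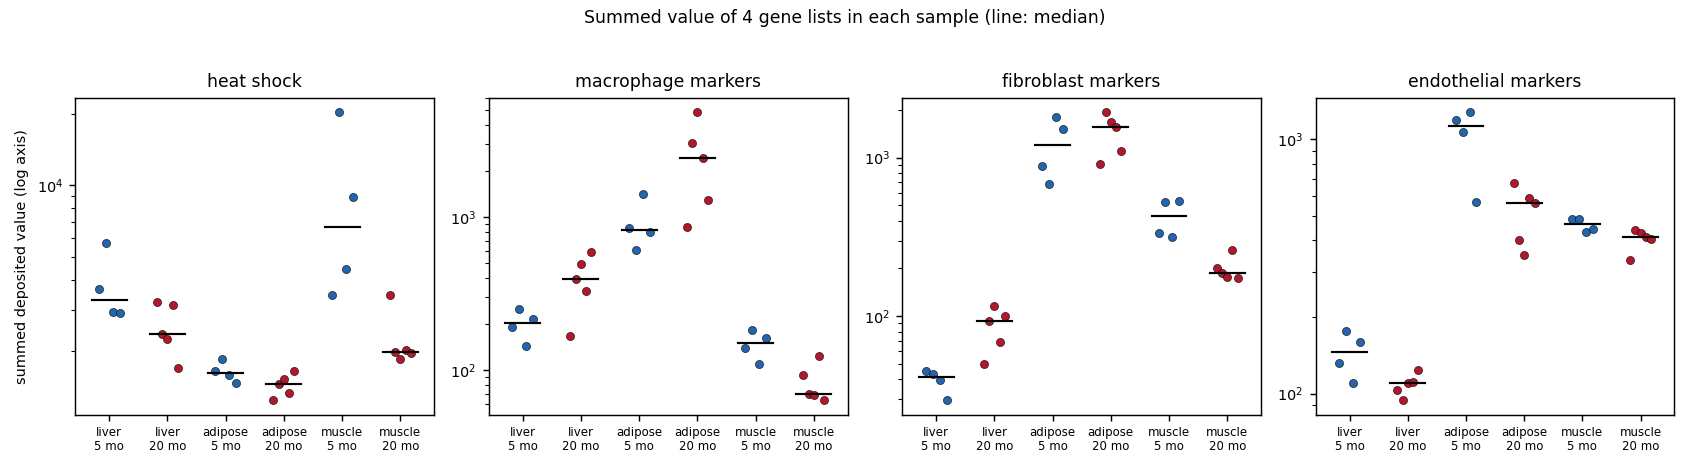
Summed deposited value (y axis, log scale) of 10 heat shock chaperone genes and of 5 markers each of macrophages, fibroblasts and endothelial cells in every sample, by tissue and age. Lines are medians (blue, 5 months; red, 20 months). Mouse B is the highest 5-month point for heat shock in each tissue, at 20280 in muscle, and the ages do not overlap for fibroblast markers in muscle.

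Genes related to the 10 by family or by regulation were grouped by role, and the median changes of these groups stand beside medians of 0.02, 0.01 and 0.00 over all genes tested in muscle, adipose tissue and liver. The counts stand beside 10.1% of all genes lower and 9.13% higher in muscle, 9.35% and 9.75% in adipose tissue, and 9.79% and 10% in liver. Of 27 other immediate early genes, 11 of 25 tested fell in muscle and 0 rose (median log2 change -1.09), 7 of 27 fell and 2 rose in adipose tissue (median -0.34), and 4 of 25 rose and 0 fell in liver (median 0.01). The largest falls in muscle were of *Cebpd* (212 ± 133 to 28.8 ± 12.7, log2 change -2.78, limma adjusted p = 0.00246), a C/EBP factor, and *Arc* (log2 change -2.46, limma adjusted p = 0.0190), best known from neurons. In adipose tissue *Gadd45g*, a stress response gene, fell most (82.0 ± 35.0 to 29.9 ± 7.40, log2 change -1.37), followed by *Maff*, a small Maf factor (-1.29), whereas *Rgs1* (1.45), a regulator of G protein signalling found mainly in leukocytes, and *Plk2* (0.94) rose. In liver *Ier5* (8.91 ± 2.21 to 22.1 ± 8.67, log2 change 1.16, limma adjusted p = 0.0170) and *Klf2* (0.74) rose most.

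Among the other AP-1 and ATF genes, *Fosl2*, a further Fos protein, fell in adipose tissue (131 ± 65.0 to 39.9 ± 7.96, log2 change -1.58, limma adjusted p = 0.0160) and in muscle (-1.27, limma adjusted p = 0.0396). The leukocyte factors *Batf* (0.97) and *Batf3* (0.87) rose in adipose tissue, where *Atf7* (-0.88) fell. In liver *Batf3* rose (0.80) and *Atf2* fell (-0.47), so that 1 of 6 tested was higher and 1 lower there, 2 and 2 of 9 in adipose tissue and 0 and 1 of 5 in muscle, with medians of -0.21, -0.06 and -0.37. Of the other Egr genes and their Nab corepressors, *Egr2* rose in adipose tissue (3.50 ± 1.28 to 19.9 ± 13.8, log2 change 1.97, limma adjusted p = 0.0285), where *Egr1* fell, and *Egr3* rose as well (0.63). In muscle *Egr2* fell (-0.82) with *Egr1*, and in liver *Nab1* fell (-0.33). The totals were 2 higher and 0 lower of 4 tested in adipose tissue, 0 and 1 of 4 in muscle and 0 and 1 of 2 in liver (medians 0.48, -0.54 and -0.15).

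Feedback inhibitors, which shut off the upstream signals or degrade early mRNAs, fell in 4 of 14 cases in adipose tissue, 6 of 13 in muscle and 1 of 13 in liver, and 0 rose (medians -0.44, -0.71 and 0.12). *Errfi1*, an inhibitor of the EGF receptor, was lower in all 3 tissues (log2 change -1.71 in adipose tissue, -1.23 in muscle and -1.22 in liver, where it was 1594 ± 401 and 747 ± 376). In muscle the largest falls were of *Socs3* (-1.97, limma adjusted p = 0.0286), an inhibitor of cytokine signalling, and *Zfp36* (53.2 ± 34.2 to 13.4 ± 4.05, -1.76, limma adjusted p = 0.00698), which promotes decay of AU-rich mRNAs. *Dusp1*, a MAP kinase phosphatase, fell in adipose tissue (98.9 ± 21.7 to 61.7 ± 12.9, -0.67). Of 6 targets of cAMP and Creb, 3 fell in adipose tissue, 2 in muscle and 0 in liver, and 0 rose (medians -1.21, -0.28 and -0.32). *Per1*, which is also a clock gene, fell from 101 ± 62.2 to 28.3 ± 10.7 in adipose tissue (-1.67, limma adjusted p = 0.0288) and by 1.52 in muscle, and *Sik1*, a kinase that restrains Creb coactivators, fell by 1.23 and 1.95.

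Of 18 upstream kinases and factors, 2 rose and 2 fell in adipose tissue, 3 and 2 in muscle and 1 and 3 in liver, with medians of 0.05, 0.07 and -0.08. *Rps6ka1*, which encodes the kinase Rsk1, rose in adipose tissue (1.01) and liver (0.78), and *Rps6ka3*, which encodes Rsk2, rose in adipose tissue (0.58) and fell in liver (-0.61). *Rps6ka5*, which encodes the kinase Msk1, rose in muscle (8.75 ± 1.54 to 19.8 ± 4.94, log2 change 1.08, limma adjusted p = 0.00328), with *Creb1* (0.30). *Srf* (-0.28) and *Crtc2* (-0.43), a coactivator of Creb, fell in adipose tissue, *Elk4* (-0.56) and *Crtc2* (-0.36) in muscle, and *Elk4* (-0.76) in liver.

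The genes whose log2 values ran most like the mean of the standardized members over the 9 samples of a tissue were *Fgl2* (Pearson r = 0.98), *Ptgfrn* (0.98) and *Tlr4* (0.97) in muscle, *Git1* (0.97), *Ctdsp1* (0.96) and *Tshz3* (0.95) in adipose tissue, and *Sdccag3* (0.90), *Ube2b* (0.90) and *Mrps30* (0.88) in liver. These are the highest of 12720, 14005 and 12654 genes, share the libraries with the members and are given without a test.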

How the data were processed

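The authors sequenced RNA from all tissues on a NovaSeq instrument with a directional library kit, and CLC Genomics Workbench was used for mapping and counting. The deposited values are a signal, namely CPM that was further scaled by a sample-specific factor. Whole reads were recovered from the step between values (100% of values within 0.02 of a whole number). The processing notes name GRCm38.p6, and loci and promoters are from RefSeq on that build. Replicates are separate samples per the labels, and 0 of 48 pairs were identical. The table was assumed to hold CPM when the tests were chosen, and the tests were kept.

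Ages were compared within each tissue by limma 3.58.1 (R 4.3.3) with a variance trend on log2(value + 1), which understates changes of low genes. Genes needed a value of 1 or more in 4 or more samples, and p-values were adjusted by Benjamini-Hochberg over all of them (threshold 0.05). Tissues, and age changes between tissues, were compared in a single fit of 27 samples. At 5 months the same animals gave all tissues, and deviations of paired samples correlated weakly (mean 0.14, range -0.02 to 0.29). The alternatives were other pseudocounts, filters and factors, sample weights, edgeR 4.0.16, DESeq2 1.42.0, the mouse as a block and each sample left out. The tests were checked on simulated reads. All members were named, with up to 2 risers and 2 fallers past the threshold per list and tissue, the 3 genes most like the members, and *Mlx*. Members and lists were chosen with earlier results of these data known. A value from 3 reads or fewer was taken as not detectable.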

Additional observations from a re-analysis of the deposited data

Results flagged for a closer look

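In 9 of 60 sets of values (10 genes in 6 groups of 4 or 5 mice), 1 sample stood apart from the others of its group by more than Dixon's 95% critical value allows. Chance gives about 1 in 20 for normally distributed values in independent sets. The values were not logged here and the sets share samples, so the count cannot be read against that rate. In 20-month liver, mouse 16 stood above the rest for *Jun* (199), *Ier2* (62.8) and *Nr4a1* (36.2). In 5-month liver, mouse A was apart with the lowest value of *Ier2* (17.5) and the highest of *Nr4a3* (0.636, from 10 reads against 1 in each of the others). In 5-month adipose tissue the samples apart were mouse C for *Junb* (63.7) and mouse B for *Nr4a3* (341). In skeletal muscle they were mouse B at 5 months for *Egr1* (860) and mouse 56 at 20 months for *Atf3* (242). The sum of 10 heat shock genes was also the highest of the group in 5-month muscle of mouse B (20280) and in 20-month muscle of mouse 56 (3461), and its part in these values was not tested.

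The age change differed between at least 1 pair of tissues for 7 of the 9 members tested in both tissues of a pair, against 31.2% of all such genes. The difference of log2 changes between liver and skeletal muscle was 2.86 for *Fos*, 2.09 for *Junb*, 3.79 for *Egr1*, 4.83 for *Atf3* and 1.65 for *Ier2*. Between adipose tissue and skeletal muscle it was 1.54 for *Junb*, 5.35 for *Atf3*, -1.99 for *Nr4a1* and -3.46 for *Nr4a3*.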

How the results depend on the processing

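Of the age comparisons, 3, 4 and 5 of the genes passed the threshold in liver, adipose tissue and skeletal muscle. Without a filter on low values these counts were 1, 2 and 2, and over all genes 1525 passed in adipose tissue and 1507 in skeletal muscle. With all 27 samples in 1 fit, 0 genes of the 10 passed in liver, where *Atf3*, *Junb* and *Egr1* had limma adjusted p of 0.109, 0.0850 and 0.291, 4 having p under 0.05 before adjustment in the fit of liver alone, and edgeR calling 3 and DESeq2 4. That fit called 5270 genes in adipose tissue. Sample weights gave 8 members in adipose tissue, 4 for the difference between liver and adipose tissue, and 4454 and 8456 genes in liver and adipose tissue. DESeq2 on the recovered reads gave 2 members for the difference between liver and adipose tissue, 7 for that between adipose tissue and skeletal muscle, and 4348 genes in adipose tissue. The mouse as a block gave 2 members for the difference between liver and adipose tissue, in place of 1, and changed no other call on a member. These counts include *Nr4a3*, which was too low to be tested within liver. The cause of these shifts was not tested.

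Leaving out each sample in turn gave 1 to 4, 1 to 4 and 2 to 6 members in liver, adipose tissue and skeletal muscle, and 959 to 3557, 397 to 3748 and 1158 to 3796 genes. The differences between tissues gave 1 to 2 members for liver against adipose tissue, and 2 to 6 for adipose tissue against skeletal muscle, with 2 without adipose sample B or muscle sample A and 6 without muscle sample C. Changes near 0 turned sign, none past the threshold: *Nr4a1* in liver (-0.17 with sample weights, -0.46 to 0.30 leaving out samples), *Fos* in adipose tissue (-0.42 to 0.062), and *Nr4a1* (-0.057 to 0.51) and *Nr4a2* (-0.070 to 0.41) in skeletal muscle. Over the 26 age changes tested, the alternatives gave 396 values with the same direction and side of the threshold, 48 that fell below it, 11 that passed it and 8 of the other sign. With 4 mice against 5, calls near the threshold rest on few animals, and a gene at 3 reads or fewer was not detectable at this depth.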

Other observations

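The antisense transcript *Junos*, which shares exonic bases with *Jun*, was highest in skeletal muscle, as *Jun* was. It was at 20.9 to 22.01 at 5 months and 22.05 to 32.1 at 20 months in muscle, where *Jun* was 232 to 458 and 171 to 276, against 1.28 to 2.25 and 1.28 to 2.14 in adipose tissue and 0.428 to 0.891 and 0.763 to 2.005 in liver. In liver, where 4 of the 5 older samples were below every younger one for *Jun*, *Junos* did not show the same order. *Prdx2*, a peroxiredoxin gene whose exons share bases with those of *Junb*, was 99.97 to 118 at 5 months and 110 to 126 at 20 months in skeletal muscle, where *Junb* was lower at the older age. In liver, where *Junb* was higher at the older age, *Prdx2* was 99.5 to 126 and 119.6 to 159.2. In adipose tissue, where the change of *Junb* did not pass the test, *Prdx2* was 39.3 to 79.2 and 67.4 to 112.7. The part of the shared bases in the *Junb* values was not tested.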
